A study of Mus musculus with 9 samples.

Results

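The matrix metalloproteinases (MMPs) and tissue inhibitors of metalloproteinases (TIMPs) of the bone stroma were examined in cultured mouse calvarial cells at 3 stages of osteoblast differentiation. The set was chosen by gene symbol and holds 10 of the 40548 genes in the tables: the 6 proteases Mmp2, Mmp3, Mmp11, Mmp13, Mmp14 and Mmp16, and the 4 inhibitors Timp1, Timp2, Timp3 and Timp4. RNA-seq was performed on 9 libraries, 3 at each stage, from calvarial cells of C57BL/6 mice taken at postnatal day 2-3. The cells were grown to confluency and collected without differentiation (day 0), or after 4 days (day 4) or 7 days (day 7) in mineralization medium, which held β-glycerol phosphate and ascorbic acid. Mineralized cells were released with collagenase I before trypsin and non-mineralized cells with trypsin alone, so the way of collection and the stage cannot be told apart. The cultures were mixed primary cells, and in such bulk RNA fewer cells of a type and less RNA per cell cannot be told apart.

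MMPs are zinc-dependent proteases that are made as inactive proenzymes and cut the collagens, proteoglycans and glycoproteins of the extracellular matrix. TIMPs bind the active site of MMPs and block it, and TIMP2 also takes part with the membrane-anchored MMP14 in activating the proenzyme of MMP2. In bone, MMP13 and MMP14 cut fibrillar collagen, and osteoblasts and osteocytes are sources of both.

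At day 7 against day 0, Timp1 rose 3.96-fold and Mmp13 rose 2.20-fold. Mmp3 fell to a level 3.40-fold lower, on 5 to 10 reads per library at day 7, after its highest level at day 4. Mmp11 was 1.49-fold lower and Mmp16 was 1.33-fold higher, but their calls were lost in 4 and 8 of 17 alternative settings. The 2 most abundant proteases, Mmp2 and Mmp14, did not pass the test. With the deposited gene lengths, the summed RPKM of the 4 inhibitors went from below that of the 6 proteases at day 0 to above it at days 4 and 7 (on summed reads only at day 7), and Timp1 supplied most of that gain. The order at day 0 depends on the gene length used for Mmp14.

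Levels are given as RPKM, the reads on a gene scaled to its length in kilobases and to the reads of the library. The stages were compared gene by gene at day 7 against day 0 with limma on log2(CPM + 0.5), where CPM is the same without the length, over the 12712 genes whose mean CPM reached 1. Fold changes in the text are ratios of mean RPKM, log2 fold changes are the fitted ones on the log2(CPM + 0.5) scale with their standard error (SE) and 95% interval, and adjusted p-values are limma's after Benjamini-Hochberg adjustment over all of these genes, with a threshold of 0.05. Of the members, 9 entered the test and Timp4 did not reach the minimum level. The day 4 libraries have tables of their own and more reads. They were left untested and set against the other stages only by whether the libraries overlapped. Stage, table and depth cannot be told apart for day 4.

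Each library had 7741204 to 14013219 reads on genes at day 0, from 32820610 to 37306090 at day 4 and from 10675858 to 15622755 at day 7. Replicates of a stage correlated with Spearman coefficients across genes from 0.986 to 0.996, and day 0 replicate 3 stood furthest from its stage, with a median absolute log2 difference of 0.35 to 0.36 from the other libraries of day 0 against 0.12 between those. The labelled cell type was checked by its markers. Beside the marker counts that follow, 12.6% of all genes tested were higher at day 7 and 18.6% lower. Of 11 osteoblast markers 10 rose from day 0 to day 7, and their summed level was 6638 to 7827 RPKM at day 0, then 17220 to 20380 at day 4 and 18600 to 22880 at day 7. Markers of other cells were present as well. All 9 macrophage markers were higher at day 7, with a sum of 45.8 to 77.7 RPKM at day 0, then 89.7 to 100.1 at day 4 and 86.3 to 115 at day 7, most of it Lyz2. Of 8 osteoclast markers 4 were tested and 3 of these were higher, with a sum of 109 to 142 RPKM at day 0, then 250.3 to 258 at day 4 and 245 to 254 at day 7. Ctsk, which osteoblast-lineage cells can also express, made up most of that sum and rose 1.92-fold. Acp5 rose 8.84-fold (adjusted p = 3.05e-13) and Atp6v0d2 rose 3.33-fold (adjusted p = 0.00119). Ocstamp, too low for the test, had at most 5 reads at day 0 and 16 to 31 reads at day 4, and lay above day 0 in every day 4 library. Dcstamp had at most 1 read and Calcr at most 4 reads in any library. The part of these cells in the changes below was not tested.

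The bases just upstream of Mmp13, Mmp3 and Timp1 are shown because these are the members with the largest changes between the stages. Each sequence is the 250 bases before the RefSeq start of the gene on the GRCm38.p6 assembly, written 5′ to 3′ on the strand of the gene, and capitals mark matches to the 3 motifs searched. The windows are chr9:7272264-7272513 on the plus strand for Mmp13, chr9:7445572-7445821 on the plus strand for Mmp3 and chrX:20869916-20870165 on the plus strand for Timp1.
Mmp13: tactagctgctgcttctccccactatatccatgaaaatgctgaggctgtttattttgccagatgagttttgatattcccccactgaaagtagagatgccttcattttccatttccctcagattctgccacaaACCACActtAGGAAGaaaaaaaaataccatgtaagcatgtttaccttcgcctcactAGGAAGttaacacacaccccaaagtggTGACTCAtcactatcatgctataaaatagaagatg
Mmp3: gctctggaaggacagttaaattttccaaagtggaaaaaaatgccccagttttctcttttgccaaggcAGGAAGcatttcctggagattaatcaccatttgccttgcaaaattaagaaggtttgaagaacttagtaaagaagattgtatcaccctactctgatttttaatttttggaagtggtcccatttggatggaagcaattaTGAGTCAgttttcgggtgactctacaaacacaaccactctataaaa
Timp1: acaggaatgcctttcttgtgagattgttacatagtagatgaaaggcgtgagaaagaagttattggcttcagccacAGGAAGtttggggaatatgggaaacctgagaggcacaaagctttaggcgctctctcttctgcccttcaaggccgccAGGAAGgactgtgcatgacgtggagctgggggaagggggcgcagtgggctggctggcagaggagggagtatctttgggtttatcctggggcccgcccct
The motifs, searched on both strands, were those known for AP-1 (TGANTCA), RUNX factors (TGTGGT, or ACCACA on the other strand) and the PEA3 type of ETS factors (AGGAAG, or CTTCCT on the other strand). Counting back from the start site, Mmp13 had an AP-1 match at -35 to -29, PEA3 matches at -62 to -57 and -109 to -104 and a RUNX match on the other strand at -118 to -113. Mmp3 had an AP-1 match at -46 to -40 and a PEA3 match at -183 to -178, and Timp1 had PEA3 matches at -99 to -94 and -175 to -170. No match overlapped another in these windows.

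Among 32851 promoter windows of the same length, 6.75% held the AP-1 letters, 14% the RUNX letters and 29.5% the PEA3 letters. A window was given for 8 of the 10 members, all but Mmp2 and Mmp16. AP-1 letters were found in 2 of these 8 windows (Mmp13 and Mmp3), RUNX letters in 2 (Mmp13 and Mmp14) and PEA3 letters in 6 (Mmp13, Mmp3, Mmp14, Timp1, Timp3 and Timp4). These matches are a description of the letters, and no binding was measured.

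Of the 9 members tested, 3 were higher at day 7 than at day 0 (Mmp13, Mmp16 and Timp1), where 12.6% of all genes tested were higher, and 2 were lower (Mmp3 and Mmp11), where 18.6% of all genes tested were lower. Over all genes 1602 were higher and 2369 lower, and with median-of-ratios scaling the split was 2827 and 2629. The other 4 members, Mmp2, Mmp14, Timp2 and Timp3, passed in neither direction. The median log2 fold change was -0.07 over the 6 proteases and 0.26 over the 3 inhibitors tested, beside a median of -0.11 over all genes tested. With only 3 libraries a stage, an exact two-sided permutation test of a single gene cannot go below 0.1. That smallest p was reached by the 7 members whose day 0 and day 7 libraries did not overlap: Mmp13, Mmp16, Timp1 and Timp2, all higher at day 7, and Mmp2, Mmp3 and Mmp11, all lower. Over all genes tested, 16.9% lay wholly higher and 25.4% wholly lower at day 7. The adjusted p-values of limma rest more on the spread of genes of like level than on the 3 libraries of the gene itself.

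**Figure D1:**
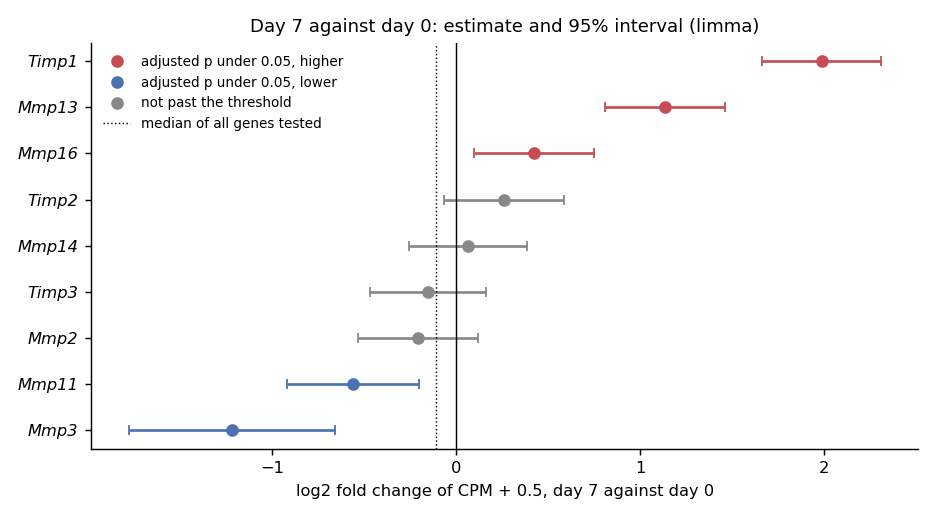
Log2 fold change of CPM + 0.5 at day 7 against day 0 (x axis) for the 9 members tested by limma, with whiskers for the 95% interval, red for higher and blue for lower at an adjusted p under 0.05, grey for neither, and a dotted line at the median of all genes tested. Timp1 lies furthest to the right at 1.99 and Mmp3 furthest to the left at -1.22.

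The collagenases are described first. Mmp13, collagenase-3, cuts fibrillar collagens and is made in bone by osteoblasts and by hypertrophic chondrocytes. It lies on chromosome 9 (GRCm38, chr9:7272514-7283331, plus strand). Its level was 67.2, 47.7 and 52.8 RPKM in the 3 day 0 libraries, 193, 124 and 200.1 RPKM at day 4, and 150.0, 109.5 and 110.0 RPKM at day 7. Every library of days 4 and 7 lay above every day 0 library, and days 4 and 7 overlapped. The mean was 55.9 ± 10.1 RPKM at day 0 (SD, n = 3), then 173 ± 42.3 at day 4 and 123 ± 23.3 at day 7. From day 0 to day 7 its log2 fold change was 1.14 (SE 0.16, 95% interval 0.81 to 1.46, adjusted p = 1.54e-07). Since chondrocytes also make this enzyme, their markers were set beside it: the summed level of 8 chondrocyte markers was 469, 164 and 193 RPKM at day 0, 174, 55.2 and 83.2 at day 4, and 167, 70.9 and 71.9 at day 7. Replicate 1 was the highest of its stage in this sum at all stages and in Mmp13 at days 0 and 7. Most of the sum was Col2a1, which fell from 239 to 81.1 and 53.5 RPKM. Of 7 chondrocyte markers tested 3 were higher at day 7 and 2 lower. Col10a1, the marker of hypertrophic chondrocytes, rose from 0.759 to 1.05 and 2.61 RPKM (3.45-fold at day 7, adjusted p = 5.25e-07), Comp rose 3.02-fold and Acan rose 2.10-fold, while Col9a1 was the other marker that fell. The part of chondrocytes in the rise of Mmp13 was not tested. Mmp13 passed in each of the 17 alternatives run, among them the fit without replicate 1 of both stages.

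Mmp14 is the membrane-anchored collagenase MT1-MMP, which also activates the MMP2 proenzyme at the cell surface. The gene lies on chromosome 14 (chr14:54431612-54445364, plus strand) and had 239, 274 and 231 RPKM at day 0, 287, 251 and 268 RPKM at day 4, and 271, 246 and 259 RPKM at day 7. The libraries of all stages overlapped. Its log2 fold change from day 0 to day 7 was 0.06 (SE 0.16, 95% interval -0.26 to 0.38, adjusted p = 0.798), an interval that leaves room for a modest change in either direction.

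Mmp2, the gelatinase that MMP14 activates, cuts denatured collagen and basement membrane collagen, and was the most abundant of the 6 proteases. It lies on chromosome 8 (chr8:92827291-92853420, plus strand) and had 333, 323 and 326 RPKM at day 0, 401, 346 and 395 RPKM at day 4, and 313, 266 and 272 RPKM at day 7. All day 4 libraries lay above all day 0 libraries, and all day 7 libraries lay below both. Between day 0 and day 7 the shift missed the threshold, with a log2 fold change of -0.21 (SE 0.16, 95% interval -0.54 to 0.12, adjusted p = 0.355).

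Mmp3, stromelysin-1, cuts proteoglycans and other non-fibrillar matrix proteins and can activate other MMP proenzymes. It lies 162491 bases beyond Mmp13 (chr9:7445822-7455975, plus strand), in a cluster of 10 MMP genes on chromosome 9. It was the lowest of the proteases, with 1.11, 0.93 and 1.36 RPKM at day 0, 3.20, 2.52 and 4.41 RPKM at day 4, and 0.407, 0.417 and 0.178 RPKM at day 7. The stages did not overlap, and day 4 was the highest and day 7 the lowest. The mean went from 1.14 ± 0.218 RPKM at day 0 to 3.38 ± 0.959 at day 4 and 0.334 ± 0.135 at day 7 (SD, n = 3), 2.97-fold up and then 10.1-fold down. These levels rested on 19 to 28 reads per library at day 0, then 169 to 286 at day 4 and 5 to 10 at day 7. From day 0 to day 7 the log2 fold change was -1.22 (SE 0.28, 95% interval -1.78 to -0.66, adjusted p = 5.14e-04), and the call held in each of the 17 alternatives. At so few reads its size depends on the 0.5 added to CPM, which the interval does not cover. It was -1.67 with 0.1 added and -0.93 with 1, and on the recovered reads -1.65 with edgeR and -1.68 with DESeq2. Of its 50-base stretches 8.39% are shared with another gene, Mmp10 or Gm15244, where uniquely aligned reads cannot be placed.

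Mmp11, stromelysin-3, is a secreted protease that is typical of stromal cells and is activated inside the cell by furin-type convertases. It lies on chromosome 10 (chr10:75923222-75936496, minus strand) and had 8.98, 8.29 and 7.53 RPKM at day 0, 6.09, 10.5 and 6.86 RPKM at day 4, and 4.84, 6.30 and 5.52 RPKM at day 7. All day 7 libraries lay below all day 0 libraries, while day 4 spread across both. Its log2 fold change from day 0 to day 7 was -0.56 (SE 0.18, 95% interval -0.92 to -0.20, adjusted p = 0.0125). The call was lost without day 0 replicate 1 (adjusted p = 0.0637), day 7 replicate 1 (0.105), day 7 replicate 3 (0.0586) or replicate 1 of both stages (0.313). Its exons share 155 bases with Chchd10 on the opposite strand, and the use of strand in the counting is not stated.

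Mmp16, the membrane-anchored MT3-MMP, spans a long locus on chromosome 4 (chr4:17852893-18119145, plus strand). It had 6.23, 5.57 and 4.34 RPKM at day 0, 6.60, 3.43 and 5.45 RPKM at day 4, and 7.63, 6.65 and 7.16 RPKM at day 7. All day 7 libraries lay above those of days 0 and 4, which overlapped each other. Its log2 fold change was 0.42 (SE 0.16, 95% interval 0.09 to 0.75, adjusted p = 0.0423). Of the 5 calls this one was lost most often: in 8 of the 17 alternatives its adjusted p was over the threshold, up to 0.179 without day 7 replicate 1, and among these were the fits without day 0 replicate 2 (0.0733), day 7 replicate 2 (0.0654) and day 7 replicate 3 (0.144).

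Timp1, a secreted inhibitor of most soluble MMPs, showed the largest rise of the set. It lies on the X chromosome (chrX:20870166-20874735, plus strand), inside the synapsin gene Syn1 on the opposite strand, with no exon in common. Its level was 311, 255 and 235 RPKM at day 0, 1085, 1203 and 1292 RPKM at day 4, and 1200, 959.8 and 1013 RPKM at day 7. Every library of days 4 and 7 was more than 3 times as high as the highest day 0 library, and days 4 and 7 overlapped. The mean was 267 ± 39.2 RPKM at day 0, then 1193 ± 104 at day 4 and 1058 ± 126 at day 7 (SD, n = 3), which is 4.47-fold and 3.96-fold the day 0 level. Its log2 fold change from day 0 to day 7 was 1.99 (SE 0.16, 95% interval 1.67 to 2.31, adjusted p = 1.45e-14), and it passed in each of the 17 alternatives. Ranked by mean RPKM among the genes with reads, Timp1 stood at place 118 at day 0, then 28 at day 4 and 31 at day 7. Syn1 itself was at 0.412, 0.647 and 0.458 RPKM on average at days 0, 4 and 7, with a log2 fold change of 0.11 (adjusted p = 0.800).

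Timp2, which inhibits MMPs and also bridges MMP14 to the MMP2 proenzyme, lies on chromosome 11 (chr11:118301069-118355740, minus strand). It had 202, 225 and 222 RPKM at day 0, 219.5, 146 and 200.2 RPKM at day 4, and 257, 260.3 and 259 RPKM at day 7. All day 7 libraries were above all others, and days 0 and 4 overlapped. The log2 fold change from day 0 to day 7 was 0.26 (SE 0.16, 95% interval -0.06 to 0.59, adjusted p = 0.230), short of the threshold. It passed with median-of-ratios scaling (log2 fold change 0.37, adjusted p = 0.0372), with DESeq2 (0.36, adjusted p = 0.00597), with voomWithQualityWeights (0.39, adjusted p = 0.00779) and without day 0 replicate 3 (0.28, adjusted p = 0.0359).

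Timp3, the inhibitor that binds to the matrix itself and also blocks ADAM proteases, lies on chromosome 10 (chr10:86300372-86349506, plus strand). It had 68.9, 68.3 and 56.5 RPKM at day 0, 73.2, 84.0 and 69.7 RPKM at day 4, and 60.3, 57.8 and 55.3 RPKM at day 7. Day 4 lay above both other stages, which overlapped. The log2 fold change from day 0 to day 7 was -0.15 (SE 0.16, 95% interval -0.47 to 0.16, adjusted p = 0.494), and it passed only without day 0 replicate 3 (-0.25, adjusted p = 0.0419). Its locus is inside Syn3 on the opposite strand, and 1733 bases, 21.3% of its exon bases, are also exons of Syn3. Syn3 had a mean of 0.113 RPKM at day 0, then 0.154 at day 4 and 0.0359 at day 7.

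Timp4 lies on chromosome 6 (chr6:115241892-115252205, minus strand), inside Syn2, and was at the limit of detection. It had 1, 2 and 0 reads in the day 0 libraries, 0, 1 and 2 reads at day 4 and 0, 0 and 1 reads at day 7. All these are below a floor of 3 reads, which corresponds to 0.0568 to 0.274 RPKM depending on the library, so no fold is given and a difference was not detectable at this depth. Syn2 had at most 3 reads in any day 0 library and at most 1 at day 7.

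**Figure D2:**
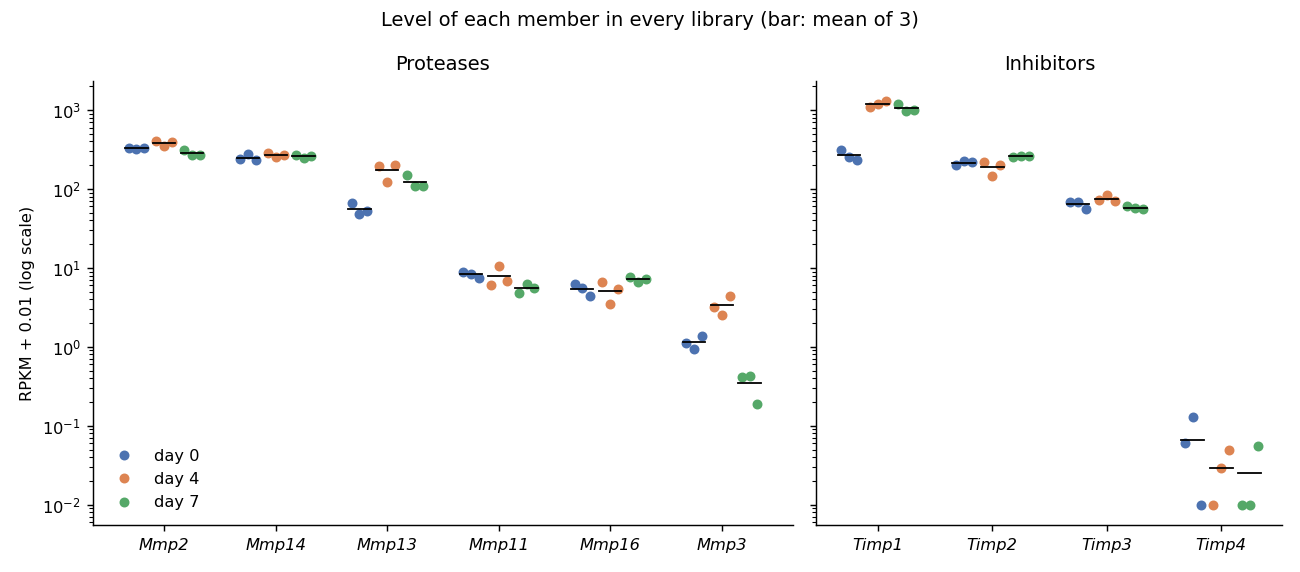
Level of each member in RPKM + 0.01 on a log axis, for the 6 proteases (left) and the 4 inhibitors (right), with a point for each library coloured by stage and a bar at the mean of the 3 libraries. Timp1 and Mmp13 stand apart from their day 0 level at days 4 and 7, Mmp3 peaks at day 4, and Timp4 stays under 3 reads in every library.

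Ordered by level within a stage, the proteases were Mmp2, Mmp14, Mmp13, Mmp11, Mmp16 and Mmp3 at day 0, and the libraries of each neighbouring pair did not overlap. The order of the means was the same at day 4, but Mmp11 overlapped with Mmp16 and Mmp16 with Mmp3. At day 7 the libraries of Mmp2 and Mmp14 overlapped, and Mmp16 had moved above Mmp11. The inhibitors kept the order Timp1, Timp2, Timp3, Timp4 at all stages, with no overlap between neighbours. The deposited gene length of Mmp14 is 2597 bases, less than the 5960 exon bases in GENCODE M21, so its place among the proteases depends on the gene model used for RPKM, as does its weight in the sums below.

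The mean was highest at day 4 for 6 of the 10 members: Mmp2, Mmp3, Mmp13, Mmp14, Timp1 and Timp3. Days 4 and 7 overlapped for Mmp13, Mmp14 and Timp1, and the share of all genes with the highest mean at day 4 was not computed. All day 4 libraries lay above all those of day 0 for 5 members (Mmp2, Mmp3, Mmp13, Timp1 and Timp3) and below for 0. The shares beside these counts are of the 12782 genes whose mean CPM over the 9 libraries reached 1, which leave out Timp4. Of these genes 21.6% lay above and 21.9% below. From day 4 to day 7, all libraries were higher for Mmp16 and Timp2, beside 13.6% of these genes. They were lower for Mmp2, Mmp3 and Timp3, beside 25%. Thus Mmp2, Mmp3 and Timp3 were above both other stages at day 4 without overlap, which held for 8.07% of the 12782 genes. These counts share the day 4 libraries and describe 1 time course. Leaving out a library moved the count above day 0 to at most 6, with Mmp14 added without day 0 replicate 2.

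Proteases and inhibitors were then compared as sums of RPKM, which describe RNA and not enzyme activity. The 6 proteases summed to 655, 659 and 623 RPKM at day 0, 897, 737 and 879.8 RPKM at day 4, and 747, 635 and 654 RPKM at day 7. The 4 inhibitors summed to 582, 548 and 513 RPKM at day 0, 1377, 1434 and 1562 RPKM at day 4, and 1518, 1278 and 1327 RPKM at day 7. The protease sum of day 7 overlapped with that of day 0, whereas the inhibitor sum was more than 2 times as high in every later library as in any day 0 library. The ratio of the sums was 1.13, 1.20 and 1.21 in the day 0 libraries, 0.652, 0.514 and 0.563 at day 4, and 0.492, 0.497 and 0.493 at day 7. In RPKM with the deposited gene lengths, proteases outweighed inhibitors in every day 0 library and in no later one. That order at day 0 depends on the deposited Mmp14 length of 2597 bases. The 5960 exon bases of GENCODE M21 would lower the protease sums, and the ratio was not recomputed with them. On summed reads, which are not scaled to length, the crossing from day 0 held at day 7 but not at day 4: the ratio of reads was 1.16, 1.14 and 1.17 at day 0, then 1.06, 0.902 and 1.00 in the day 4 libraries and 0.835, 0.777 and 0.793 in those of day 7. On average the ratio was 1.18 ± 0.0477 at day 0, then 0.576 ± 0.0695 at day 4 and 0.494 ± 0.00272 at day 7 (SD, n = 3), a 2.39-fold drop from day 0 to day 7. In log2 units the drop was -1.26, against a pooled SD between replicates of 0.0421 for the log2 ratio.

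This drop rested on Timp1. Without Timp1 the ratio was 2.30 ± 0.0994 at day 0, then 3.18 ± 0.0993 at day 4 and 2.15 ± 0.187 at day 7 (SD, n = 3), so that day 0 and day 7 overlapped and the log2 difference was -0.10. Without both Mmp2 and Timp1, the most abundant member of each class, the sign turned, with a log2 difference of 0.14. It was -0.53 when CPM were summed in place of RPKM and -0.54 when the mean of the log2 values was taken. By construction Timp1, which is short and abundant, has less weight in both. The mean of the log2 values also gives low members the same weight as abundant ones. Among these are Mmp3, with 5 to 10 reads per library at day 7, and Timp4, with at most 2 reads in any library.

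**Figure D3:**
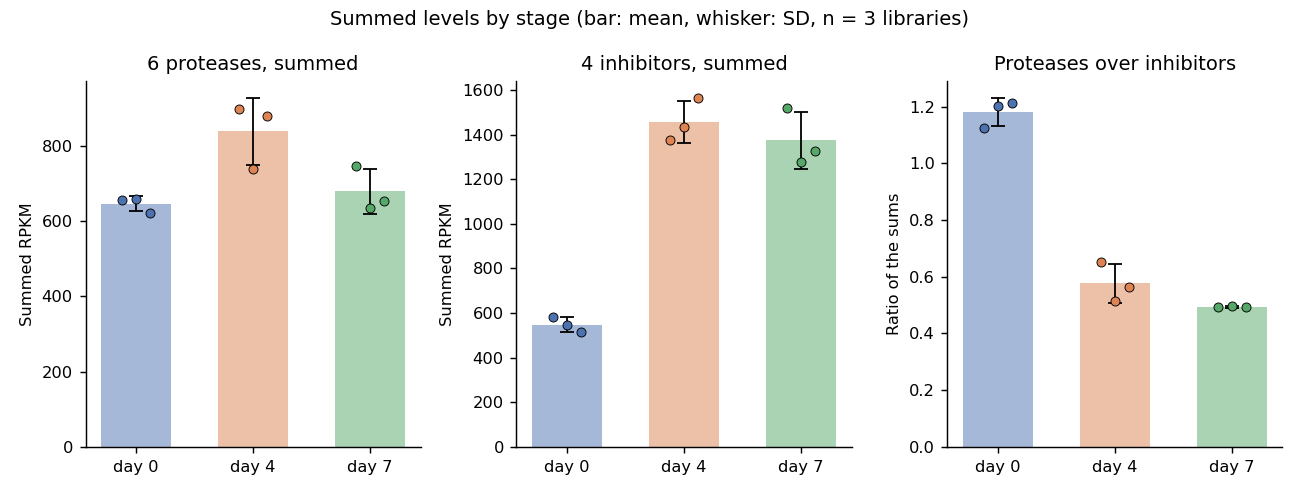
Summed RPKM of the 6 proteases (left) and the 4 inhibitors (middle) and the ratio of the sums (right) by stage, with bars for the mean, whiskers for the SD and a point for each of the 3 libraries. The ratio is at least 1.13 in the day 0 libraries and at most 0.652 in those of days 4 and 7.

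Within the classes the shares moved as well. Timp1 made up 48.6% of the inhibitor sum at day 0, 81.8% at day 4 and 76.8% at day 7, while Timp2 went from 39.7% to 13.0% and 18.9%, and Timp3 from 11.8% to 5.21% and 4.22%. Neither Timp2 nor Timp3 fell past the test at day 7. Mmp2 and Mmp14 together made up 89.1% of the protease sum at day 0, then 77.7% at day 4 and 80.0% at day 7, and Mmp13 rose from 8.67% to 20.4% and 18.0%.

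**Figure D4:**
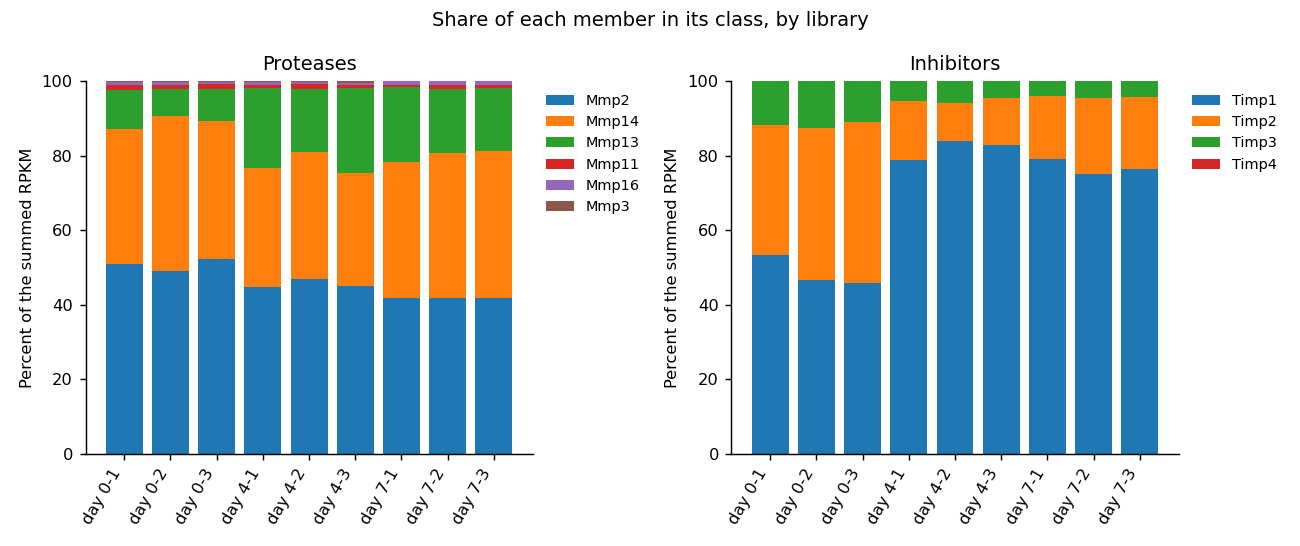
Percent of the summed RPKM of its class taken by each member, for the 6 proteases (left) and the 4 inhibitors (right), with a stacked bar for each of the 9 libraries named by stage and replicate. The Timp1 part grows from 45.8 to 53.4% in the day 0 libraries to at least 75.1% in every later one, and the Mmp13 part from at most 10.3% to at least 16.8%.

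Ratios of single pairs described the balance between enzymes and the inhibitors known to bind them. Mmp14 over Timp2, the pair that acts together on the MMP2 proenzyme, was 1.15 ± 0.0919 at day 0, then 1.45 ± 0.227 at day 4 and 1.00 ± 0.0549 at day 7 (SD, n = 3), and days 0 and 7 overlapped. Mmp2 over Timp2 was 1.52 ± 0.113, 2.06 ± 0.279 and 1.10 ± 0.105 at the same stages, with no overlap between stages. Mmp13 over Timp1 was 0.209 ± 0.0197, 0.145 ± 0.0386 and 0.116 ± 0.00835. Although Mmp13 itself rose, this ratio was lower in every later library than in any day 0 library. Mmp2 over Timp1 also fell, with 1.24 ± 0.159, 0.321 ± 0.0430 and 0.269 ± 0.00825 at the same stages. Mmp14 over Timp3 went the other way from day 0 to day 7, with 3.86 ± 0.338 and 4.48 ± 0.209. Its lowest value at day 7 was 4.26 and its highest at day 0 was 4.09. At day 4 this pair was at 3.58 ± 0.518 and overlapped with day 0. The size of both ratios with Mmp14 depends on its deposited length of 2597 bases, against 5960 exon bases in GENCODE M21. Their change between stages does not.

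Genes whose levels followed Timp1 most closely were sought by Pearson correlation of log2(RPKM + 0.1) over the 9 libraries, among 9100 genes whose mean CPM reached 10. They were Srpx2 (r = 0.995), which went from 21.9 to 134 and 103 RPKM at days 0, 4 and 7, Tnn (0.992), which encodes the matrix protein tenascin-N and went from 55.2 to 171 and 174 RPKM, and the transcription factor gene Bhlhe40 (0.992), which went from 11.1 to 47.1 and 45.3 RPKM. For Mmp3 the closest were Git1 (0.970), Olfm1 (0.964) and Polr3a (0.951). Of these only Olfm1 moved over a wide range, from 10.4 to 17.0 and 5.45 RPKM, whereas Git1 stayed between 11.8 and 14.1 and Polr3a between 5.92 and 7.03 RPKM on average. The libraries share stages and depth differences, so these coefficients are descriptions.

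The remaining MMP genes were a list of 17, of which 7 were tested, 2 higher and 3 lower at day 7, beside 12.6% and 18.6% of all genes tested. Mmp23, a membrane-anchored member, had the highest level of these: 65.1, 71.7 and 63.7 RPKM at day 0, 102.5, 99.6 and 108 RPKM at day 4, and 121, 94.5 and 122 RPKM at day 7. It was above its day 0 level in every later library (log2 fold change 0.74, SE 0.15, adjusted p = 1.58e-04). Mmp12, macrophage metalloelastase, rose from 0.0799 to 0.167 and 0.411 RPKM on average (log2 fold change 1.70, SE 0.28, adjusted p = 2.43e-06), from 3 to 11 reads at day 0 to 34 to 41 reads at day 7. Its levels at days 0 and 4 overlapped, and those at day 7 exceeded both without overlap. Of the 9 macrophage markers given above, 8 had risen without overlap by day 4, and 8 overlapped between days 4 and 7. The part of macrophages in the rise of Mmp12 was not tested. Mmp15, another membrane-anchored enzyme, fell from 1.05 to 0.360 and 0.265 RPKM (log2 fold change -1.64, SE 0.25, adjusted p = 5.51e-07). Mmp19 was at 12.7 and 12.3 RPKM at days 0 and 4 and fell to 6.73 at day 7 (-0.90, SE 0.17, adjusted p = 3.54e-05). The gelatinase gene Mmp9, abundant in osteoclasts, went from 0.708 to 0.539 and 0.335 RPKM (-0.86, SE 0.28, adjusted p = 0.0136), but this call was lost in 8 of the 17 alternatives, among them those without day 0 replicate 2 (adjusted p = 0.0819), day 0 replicate 3 (0.0591) or day 7 replicate 1 (0.177). Of the rest, Mmp7 had no reads in any library.

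Genes that activate MMPs formed a list of 9, of which 8 were tested, 5 higher and 0 lower at day 7, beside 12.6% and 18.6% of all genes tested. The proprotein convertase gene Pcsk6 had 13.1, 19.5 and 16.1 RPKM at day 0, 22.2, 28.5 and 25.4 RPKM at day 4, and 63.1, 63.5 and 54.5 RPKM at day 7, with no overlap between stages (log2 fold change 1.91, SE 0.16, adjusted p = 4.06e-14). Plaur, the urokinase receptor, rose from a mean of 19.8 RPKM to 72.5 and 54.7 RPKM (1.46, SE 0.16, adjusted p = 4.40e-10). Bsg, which encodes basigin, a surface protein also known as an inducer of MMPs, had the highest level of the list, 332, 612 and 760 RPKM (1.20, SE 0.17, adjusted p = 8.12e-08). Another convertase gene, Pcsk5, rose from 1.94 to 5.44 and 3.67 RPKM (0.87, SE 0.18, adjusted p = 1.66e-04), and its call was lost only without replicate 1 of both stages (adjusted p = 0.0788). The fifth, named after its values were seen, was Plau, which encodes urokinase itself and went from 8.98 to 23.3 and 15.0 RPKM (0.73, SE 0.17, adjusted p = 5.44e-04). Plg, the plasminogen gene, had at most 1 read in any library.

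Inhibitors outside the TIMP family and genes of MMP clearance formed a list of 10, of which 9 were tested, 4 higher and 1 lower at day 7, beside 12.6% and 18.6% of all genes tested. Spock1, which encodes the proteoglycan testican-1, had 2, 1 and 1 reads in the day 0 libraries, 109 to 151 at day 4 and 85 to 128 at day 7 (adjusted p = 1.08e-16), or 0.924 RPKM on average at day 7. No fold is given for it, as day 0 was below the floor of 3 reads per library. Serpine2, protease nexin-1, an inhibitor of serine proteases such as urokinase, rose from 17.5 to 55.1 and 56.5 RPKM (log2 fold change 1.68, SE 0.16, adjusted p = 4.15e-12). Tfpi2, an inhibitor of plasmin, was at 0.597, 2.54 and 1.26 RPKM (0.80, SE 0.27, adjusted p = 0.0203). That call was lost in 5 of the 17 alternatives, among them those without day 0 replicate 3 (adjusted p = 0.0575), day 7 replicate 1 (0.0979) or day 7 replicate 3 (0.115). Spock2, or testican-2, was at 11.5, 18.8 and 15.9 RPKM (0.45, SE 0.16, adjusted p = 0.0282), and its call was lost in 6 of the 17, among them those without day 0 replicate 1 (0.175), day 7 replicate 1 (0.237) or day 7 replicate 3 (0.105). Lrp1, the endocytic receptor that clears MMP and TIMP complexes, was lower at day 7, from 61.7 to 40.3 and 43.8 RPKM (-0.49, SE 0.17, adjusted p = 0.0227), a call lost in 7 of the 17 alternatives, among them those without day 7 replicate 2 (0.127) or day 7 replicate 3 (0.118). Mrc2, an endocytic receptor that takes up collagen and its fragments, had the highest mean of the list over the 9 libraries, with 77.2, 59.3 and 69.2 RPKM on average at days 0, 4 and 7 (-0.16 from day 0 to day 7, SE 0.16, adjusted p = 0.471). At day 4 Cd44, a surface receptor on which proteases can dock, was higher, at 83.0 RPKM.

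**Figure D5:**
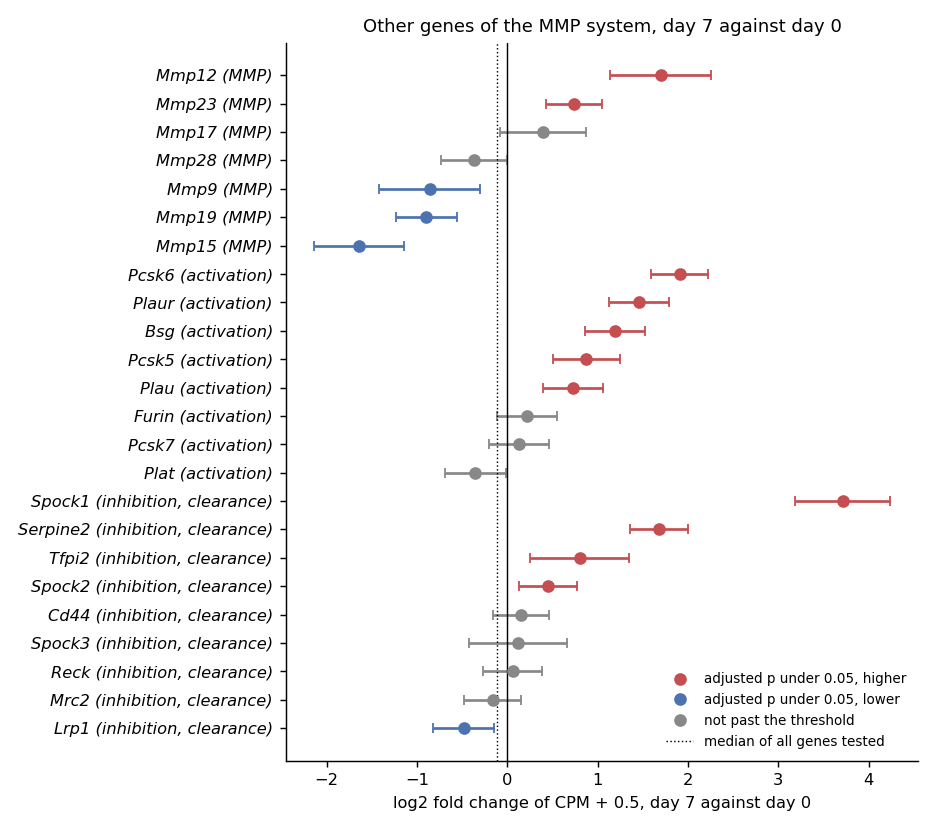
Log2 fold change of CPM + 0.5 at day 7 against day 0 (x axis) by limma for the tested genes of the other MMP, activation and inhibition or clearance lists, with whiskers for the 95% interval, red for higher and blue for lower at an adjusted p under 0.05 and grey for neither, and a dotted line at the median of all genes tested. All 5 activation genes past the threshold lie to the right, and the estimate of Spock1 depends on the pseudocount because of its 1 to 2 reads per library at day 0.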

How the data were processed

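RNA was depleted of ribosomal RNA and sequenced from 9 samples of calvarial cells. Per the labels, reads were aligned to GRCm38 with STAR 2.0.4b and counted per gene with featureCounts of Subread; the use of strand is not given in the sources used here. The authors deposited CPM values (reads on a gene scaled to the reads of the library) and RPKM values (CPM divided by gene length in kilobases), in tables of day 0 with day 7 and of day 4 alone. All 18 value columns matched a sample by name. Divided by what 1 read is worth in its library, 99.9975 to 100% of the CPM values of each library came out whole (tolerance 0.02 reads), which gave the reads printed here. The study calls the libraries of a stage biological replicates. Whether they came from separate animals or culture preparations is not stated in the labels. The p-values of limma treat these libraries as replicates and take most of the spread from genes of like level.

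Groups followed the labels. The test of day 7 against day 0 used limma 3.58.1 (R 4.3.3) on log2(CPM + 0.5) of 12712 genes, with its trend option, with 42.9 prior and 4 residual degrees of freedom and Benjamini-Hochberg adjustment; 1602 genes were higher and 2369 lower. On simulated reads with the depths of these libraries and 12712 genes, 190 of 200 changed genes were recovered, with 10 false calls. The simulation gave every gene the same spread and no shift of a whole library. Its counts are therefore a check of the code and not error rates of the real comparison. Count tests on the recovered reads with edgeR 4.0.16 and DESeq2 1.42.0 were alternatives, and edgeR called 2818 genes higher and 2650 lower. Other alternatives were the pseudocount, the filter, the RPKM table, median-of-ratios scaling, sample weights, a replicate block and leaving out libraries. Intervals and floors (3 reads) cover counting or replicate error only, as PCR copies were not marked.

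The members and lists were chosen with earlier results of these data known. All members are named. From each other list the genes past the threshold are named if there are 4 or fewer in a direction, otherwise the 4 with the largest change, plus the gene with the highest mean RPKM over the 9 libraries. For the member with the largest rise and the one with the largest fall, the 3 genes with the highest correlation are named, and all synapsin genes are named. Gene positions and exons come from GENCODE M21 and promoter sequences from RefSeq, both on GRCm38. A gene of the inhibition and clearance list is not reported here.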

Additional observations from a re-analysis of the deposited data

How the results depend on the processing

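The members' directions from day 0 to day 7 were the same in all 17 alternatives for each of the 9 tested members, and the calls of Mmp13, Timp1 and Mmp3 held in all 17. The number of members higher at day 7 was 2 to 4. The number lower was 1 to 3 when a library was left out, and 1 without replicate 1 of both stages. That setting, robust variances, the left-out libraries for day 4 and the sums without Timp1 or with Mmp23 were chosen after seeing the data. Median-of-ratios scaling alone moved the median over all genes, in log2 fold change, from -0.11 to -0.01, and the genes called higher from 1602 to 2827. The models that change the test along with the scaling called 2818 (edgeR), 2581 (DESeq2) and 3148 (voomWithQualityWeights) genes higher. With median-of-ratios scaling 2629 genes were lower, against 2369. Genes called lower ranged from 1521 to 4699 when a library was left out, the highest without day 0 replicate 3 and the lowest without day 0 replicate 2, and numbered 1143 without replicate 1 of both stages. The cause was not tested.

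The log2 ratio of summed proteases to inhibitors, day 7 minus day 0, was -1.26. It was -0.53 with summed CPM, -0.54 with the mean of log2 values, 0.14 without Mmp2 and Timp1, -0.10 without Timp1, -1.18 with Mmp23, and -1.29 to -1.24 when a library was left out. By their construction these sums give Timp1 less or no weight, except the last 2. For day 4 the left-out libraries gave 5 to 6 members above day 0, 0 to 1 below, 2 to 2 rising on to day 7 and 3 to 5 falling. In the activation list 0 to 1 gene was lower, the 1 being Plat without day 0 replicate 3. In the inhibition and clearance list the number higher was 2 to 4 when a library was left out and 2 without replicate 1 of both stages. The number lower in that list was 0 (Lrp1 lost) with all genes with reads, DESeq2, edgeR, voomWithQualityWeights and median-of-ratios scaling, and 0 to 1 when a library was left out.

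Over all genes no pairing by replicate number was seen: deviations from the stage mean correlated at -0.02, -0.18 and -0.44 for the same-numbered pairs, and no day 0 library correlated best with its own number. In the chondrocyte marker sum, however, replicate 1 was the highest of its stage at all stages. Whether same-numbered libraries share a preparation was not tested. With the replicate block 2 members were higher (Mmp16 lost, adjusted p = 0.0816) and 2 lower, and 1463 genes were higher and 1950 lower over all genes. Depth limited Mmp3 at day 7, where 5 to 10 reads were counted per library. Timp4 had at most 2 reads in any library, also at the greater depth of day 4.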
